A study of Mus musculus with 12 samples.

Results

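Gene expression at day 3 after cardiac injury was compared with every Ly6c-low time at once: 3 libraries of Ly6c-high cells of day 3 were set against 9 libraries of Ly6c-low cells, 3 each of day 0, day 7 and day 30, so that all 12 libraries of the series were used. The cells were GFP-positive cells from hearts of mice 2-3 months old with the genotype Cx3cr1GFP/+, a knock-in that puts GFP in place of 1 of their copies of Cx3cr1, a chemokine receptor gene. Day 3 cells had been sorted as Ly6c-high and CX3CR1-low and came from hearts 3 days after cryoinjury, a freezing injury used as a model of infarction. The Ly6c-low, CX3CR1-high cells came from hearts with no surgery (day 0) and from hearts 7 and 30 days after cryoinjury. Every mouse carried the GFP allele, and the labels speak of 3 independent biological replicates. The day 3 group is the only one of its gate and the only one of its time, so sorting gate and time after injury cannot be told apart in any comparison with it.

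Ly6c-high monocytes are made in bone marrow, leave it by way of the chemokine receptor Ccr2 and enter the heart in the first days after an injury, where they carry inflammatory genes. Ly6c-low, CX3CR1-high cells of the heart are macrophages: in the healthy heart they are resident cells that clear debris and carry scavenger receptors, and after an injury some of them are the offspring of recruited monocytes.

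Levels are given as signal, a normalised read count per gene that is not corrected for transcript length, so it compares libraries and not genes. Differences are day 3 minus Ly6c-low on the log2(signal + 1) scale with their standard error, which understates changes of genes with low signal. A gene was said to differ from the mean of the Ly6c-low groups when its adjusted p was under 0.05 in limma, and to hold when day 3 differed in 1 direction from each of the 3 groups taken alone at the same threshold. For a gene that held, the smallest of its 3 differences and the largest of its 3 adjusted p are given.

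Depth was 8255764 to 9681014 reads in the day 3 libraries and 5828904 to 13199576 reads in the Ly6c-low ones. With 0 reads counted, up to 3 are still allowed, which is between 0.190 and 0.543 signal depending on the library. Mitochondrial ribosomal RNA with Gm26924 and Lars2 took 25.5% to 49.3% of a library. The first library of day 0 and the second of day 7 stood apart from their groups, with a chi-square per gene of at least 61.3 against both other libraries. Within day 3 the first library was the least alike, at 33.8 against the second and 24.9 against the third, compared with 5.98 between those. The 3 libraries of day 30 were unusually alike, at 2.21 to 2.98 per gene compared with 5.98 to 86.7 in the other groups, and may come from 1 pool. Counts that moved by over 1.5 times without the 2 libraries that stand apart, with day 30 averaged as 1 sample or after quantile normalisation are given with those values. Genes with near-identical copies, among them Ly6c1 and Ly6c2, the Schlafen, Ms4a4, Ifi200 and Sirpb1 genes and Lyz1 and Lyz2, can share reads, so the split between such copies is uncertain.

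Against the mean of the 3 Ly6c-low groups, 3155 of 12879 tested genes were higher at day 3 (24.5%) and 3125 were lower (24.3%). Fewer differences were present at every Ly6c-low time: 1396 genes held higher (10.8% of all tested) and 1342 held lower (10.4%), which is 44.2% and 42.9% of the genes called against the mean. Counts for the gene lists below are to be read beside the shares of all tested genes. Without the first library of day 0 and the second of day 7, 1838 genes held higher and 1700 lower. With the day 30 libraries averaged as 1 sample, 752 held higher and 714 lower, and all of the 752 and 714 were among the 1396 and 1342. Leaving out the third library of day 3 left 1073 of the 1396 and 1045 of the 1342, and 952 and 881 genes held in each of the 12 settings that leave out 1 library.

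All 3 day 3 libraries lay above all 9 Ly6c-low libraries for 1917 genes (14.9%) and below them for 1695 genes (13.2%). Of the genes that held, 93.5% of the higher and 92.2% of the lower ones were without overlap in this sense. The rule for holding largely brings this about in the same libraries, so it adds no support. Differences of at least 2-fold against each group were found in 659 genes that held higher and 724 that held lower, and of at least 4-fold in 181 and 116. On this scale 13 genes were at least 16-fold higher than in each group and 5 at least 16-fold lower. The plot of group means shows these genes as a band on each side of the line of equal level, at all 3 Ly6c-low times.

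**Figure D1:**
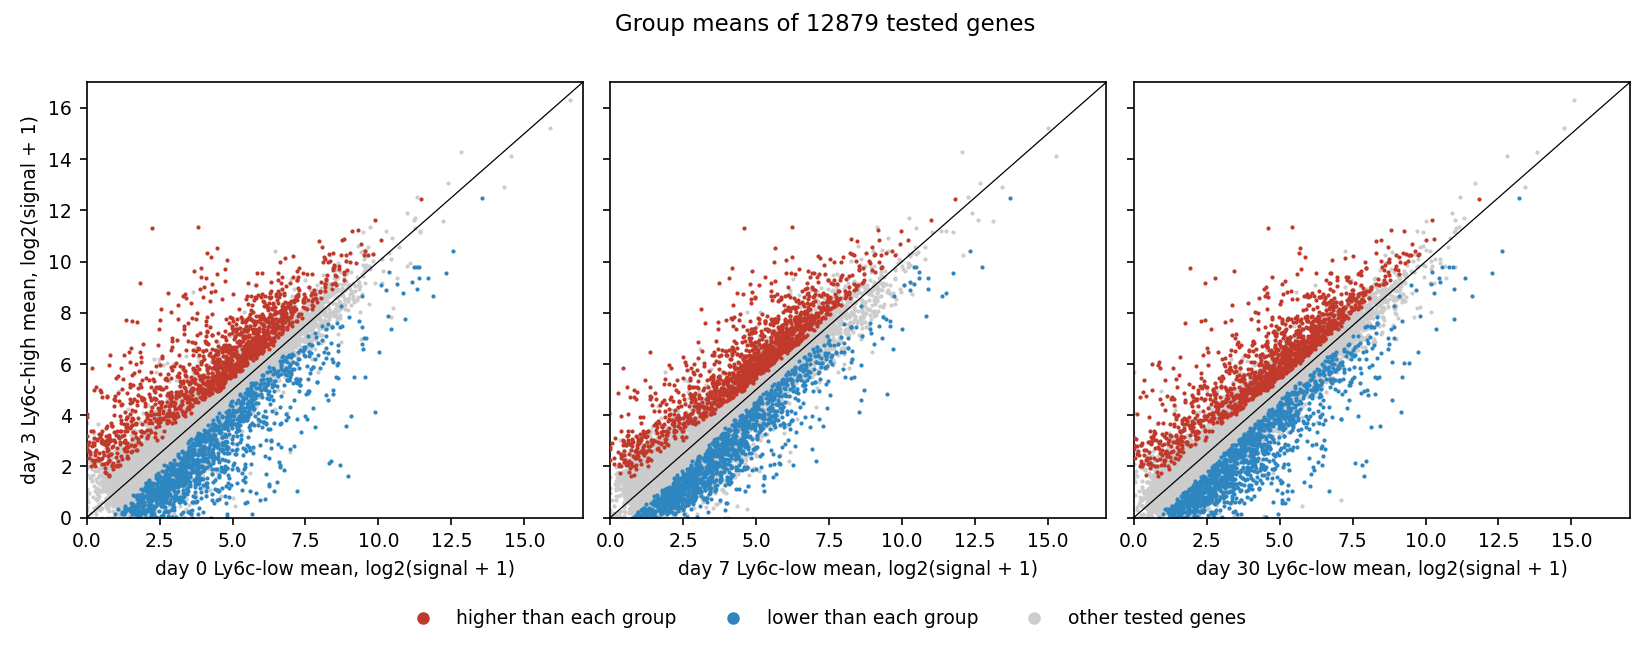
Group mean signal of the 12879 tested genes on the log2(signal + 1) scale, day 3 on the vertical axis and day 0, day 7 or day 30 on the horizontal axis, with the line of equal level. Red points are the 1396 genes higher at day 3 than in each Ly6c-low group, blue points the 1342 genes lower than in each, and grey points the other tested genes.

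The genes of the sorting gate were read first. Ly6c2, which encodes the Ly6c surface antigen (chromosome 15, 75108158 to 75111970, GRCm38), had 619.9, 933 and 1004 signal in the day 3 libraries, against 1.32, 20.7 and 20.1 at day 0, 2.88, 26.7 and 22.2 at day 7 and 2.81, 2.403 and 3.23 at day 30. The groups did not overlap, although 2 Ly6c-low libraries of day 0 and 2 of day 7 stood above the other 5. Its smallest difference was 5.95 ± 0.74 against day 7 with a largest adjusted p of 1.5e-05, larger than the spread between libraries. Ly6c1, the neighbouring copy, had 34.5, 29.04 and 39.3 signal at day 3, against 1.19, 24.3 and 15.4 at day 0, 3.78, 17.9 and 10.1 at day 7 and 3.67, 4.38 and 3.36 at day 30. It held with a smallest difference of 1.81 ± 0.66 against day 7 with a largest adjusted p of 0.034, and this call was lost without the first library of day 0 (0.78, adjusted p 0.136), without any 1 library of day 3, and without the first or the third of day 7. Cx3cr1, the other gate gene, had 43.97, 39.1 and 33.8 signal at day 3, against 126 to 204 with a median of 145 in the Ly6c-low libraries, and held lower, at -1.73 ± 0.15 against day 30 with a largest adjusted p of 3.8e-07. These 3 genes follow the gate and are no finding. In bulk samples fewer cells of a type and less RNA per cell cannot be told apart, here and in all that follows.

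Other genes used to recognise monocytes and macrophages were split. Itgam, the integrin subunit CD11b of myeloid cells, had 1205, 1301 and 1152 signal at day 3, against 406 to 619 with a median of 500.2 in the Ly6c-low libraries, and Ccr2 had 1404, 1728 and 1422, against 192 to 713 with a median of 402. Both were without overlap and held higher, at 1.23 ± 0.15 against day 7 with a largest adjusted p of 1.5e-05 and 1.67 ± 0.23 against day 7 with a largest adjusted p of 4.3e-05. Emr1, which encodes the macrophage antigen F4/80, had 279, 142 and 183 signal at day 3, against 578 to 854 with a median of 596, and Csf1r, the receptor of the macrophage growth factor CSF1, had 495, 613 and 571, against 1112 to 1849 with a median of 1199.9. Both lay below all 9 Ly6c-low libraries and held lower, at -1.597 ± 0.21 and -1.05 ± 0.18. Cd68, an endosomal glycoprotein of phagocytes, had 911, 929 and 1106 signal at day 3, against 409, 362 and 404 at day 0, 739, 1168 and 898 at day 7 and 385, 410.3 and 375 at day 30. It was higher than the mean (0.91 ± 0.14, adjusted p 5.6e-05) but overlapped day 7, where its difference did not pass (0.09 ± 0.17, adjusted p 0.68), so it did not hold.

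Monocyte genes were higher at day 3 against every Ly6c-low time. Of 29 Ly6c-high monocyte genes, 28 were higher than the mean of the Ly6c-low groups and 1 lower. Held higher were 24, of which Ly6c2 is a gate gene and no finding, and Lyz2, a lysozyme gene of myeloid cells, held lower (-0.76 ± 0.26), a call lost without the first or the third library of day 3 or any 1 of day 30. The median difference from the mean was 2.68, compared with -0.01 over all tested genes. The count of 24 was 25 without the first library of day 0 and the second of day 7, and 23 with day 30 as 1 sample, where Lyz2 did not hold.

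Plac8, a small cysteine-rich protein of leukocytes, had 408, 767 and 777 signal at day 3, against 3.696 to 33.2 with a median of 6.15 in the Ly6c-low libraries. Vcan, which encodes the matrix proteoglycan versican, had 573, 1045 and 774 signal at day 3, against 1.58, 14.2 and 19.7 at day 0, 22.7, 33.99 and 26.7 at day 7 and 9.05, 9.61 and 10.97 at day 30. In both genes the groups did not overlap, and for Vcan the day 7 libraries were the highest of the Ly6c-low ones. Their smallest differences were 5.55 ± 0.61 against day 0 with a largest adjusted p of 4.2e-06 and 4.77 ± 0.52 against day 7 with a largest adjusted p of 4.4e-06. Ms4a4c, a membrane protein of the MS4A family, had 504, 723 and 797 signal at day 3, against 12.8 to 51.4 with a median of 25.9, and held at 4.08 ± 0.20. Fn1, which encodes fibronectin, was the list member with the largest difference from the mean that did not hold; its values follow below with those of similar genes.

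Receptors by which leukocytes find and enter tissue held higher more often than lower. Of 28 trafficking and adhesion receptors, 11 held higher and 3 lower, beside 10.8% and 10.4% of all tested genes. The lower count is near that share, and 1 of the 3, Cx3cr1, is a gate gene and no finding. The median difference from the mean was 0.51. Ltb4r1, the receptor of leukotriene B4, an attractant made at sites of inflammation, had 8.24, 15.9 and 11.6 signal at day 3, against 0.606 to 1.61 with a median of 1.01. It was without overlap, at 2.62 ± 0.29 against day 7 with a largest adjusted p of 4.5e-06. Itga9, an integrin alpha subunit, had 17.2, 12.04 and 10.3 signal at day 3, against 67.05 to 119 with a median of 91.6, and S1pr1, a receptor of the lipid sphingosine 1-phosphate, had 16.7, 4.96 and 8.74, against 61.5 to 94.8 with a median of 67.9. Both were below every Ly6c-low library and held lower (-2.42 ± 0.17 and -2.66 ± 0.28). The chemokine receptor Ccr1 and the integrin chain Itgb2 also held higher, at 1.66 ± 0.19 and 0.53 ± 0.15, whereas Fpr1, C5ar1, Selplg and Icam1 passed in neither direction against the mean.

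**Figure D2:**
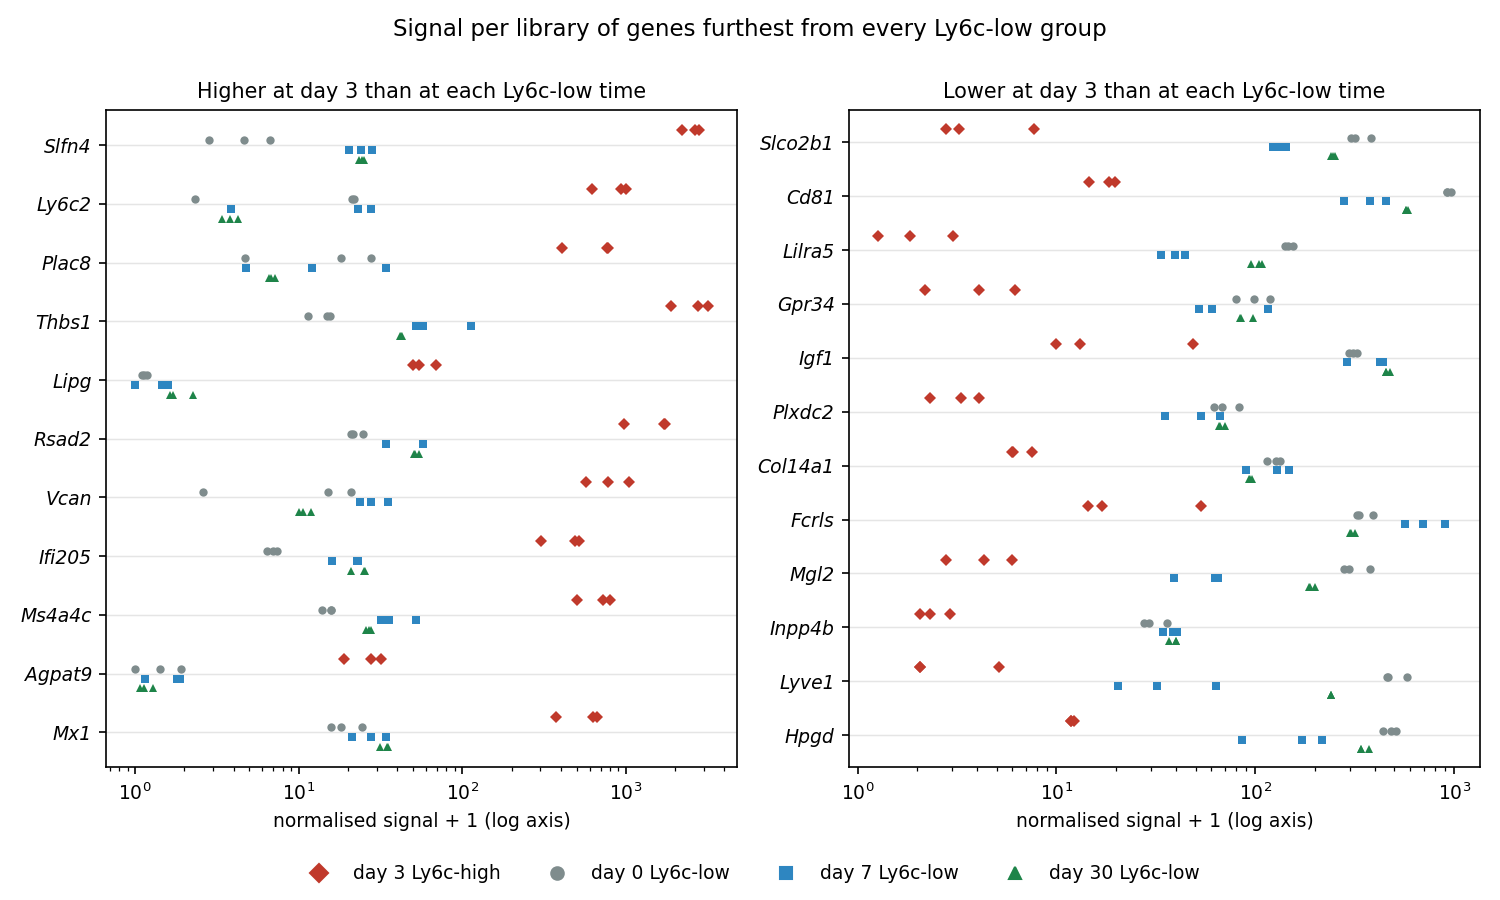
Signal + 1 on a log axis in each of the 12 libraries for 11 of the 12 genes with the largest rise (left) and the 12 with the largest fall (right) at day 3, ranked by the smallest of the 3 differences; red diamonds are day 3, grey circles day 0, blue squares day 7 and green triangles day 30. Genes were eligible only if their 3 day 3 libraries lay outside the range of the 9 Ly6c-low libraries, so the lack of overlap is a condition and no result.

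Of all named genes, Slfn4 stood furthest above every Ly6c-low group (chromosome 11, 83175186 to 83190216); it is a member of the Schlafen family found in myeloid cells. It had 2194, 2631 and 2817 signal in the day 3 libraries, against 1.85, 5.66 and 3.62 at day 0, 19.2, 26.9 and 23.1 at day 7 and 24.02, 23.3 and 22.5 at day 30. Among the Ly6c-low libraries those of day 7 and day 30 lay above those of day 0, and all were far below day 3. Its smallest difference was 6.71 ± 0.24 against day 30 with a largest adjusted p of 1.7e-10. Schlafen genes are induced by interferons and in activated immune cells. All 8 Schlafen genes tested held higher, with a median difference from the mean of 2.68; 7 of 8 held with day 30 as 1 sample. Slfn1 had 242, 381 and 389.6 signal at day 3, against 9.11 to 36.2 with a median of 14.4 in the Ly6c-low libraries, and Slfn5 had 808, 1288 and 1297, against 91.6 to 170.5 with a median of 143. They were without overlap, with smallest differences of 3.58 ± 0.23 and 2.89 ± 0.19. The gene Slfn10-ps, named as a pseudogene in the table, had 47.2, 38.1 and 41.8 signal at day 3, against 0.6600 to 8.02 with a median of 3.53 (2.73 ± 0.25).

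Interferon-stimulated genes were higher at day 3 almost without exception. Type I interferons act through the kinases JAK1 and TYK2 on a complex of transcription factors that includes STAT2 and IRF9 and binds an interferon-stimulated response element (ISRE) in promoters of antiviral genes. Of 40 members tested, 40 were higher than the mean of the Ly6c-low groups, and 38 held higher, with a median difference from the mean of 2.85. The count of 38 was the same without the first library of day 0 and the second of day 7, and with day 30 as 1 sample. The 2 members that did not hold were Irf1 (0.59 ± 0.18 from the mean) and Iigp1 (0.91 ± 0.33), a transcription factor and a GTPase that interferon gamma also induces.

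Promoters of 3 members, of the chemokine gene Cxcl10 and of Slfn4, all of which held higher, are shown with their matches to the ISRE. Whether interferon acted on these genes here was not tested. Each window runs from 250 bases before to 50 bases after the start given by RefSeq (GRCm38.p6), 5′ to 3′ on the strand of the gene. Capitals mark each match to GAAANNGAA or its reverse complement on the other strand.
Rsad2 promoter, chr12:26456403-26456702, minus strand: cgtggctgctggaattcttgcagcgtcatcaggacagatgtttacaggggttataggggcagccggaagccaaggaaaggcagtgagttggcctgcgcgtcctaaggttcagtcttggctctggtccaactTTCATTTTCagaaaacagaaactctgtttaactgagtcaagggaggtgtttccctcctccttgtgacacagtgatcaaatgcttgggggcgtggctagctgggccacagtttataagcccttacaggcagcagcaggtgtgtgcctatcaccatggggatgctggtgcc
Isg15 promoter, chr4:156200769-156201068, minus strand: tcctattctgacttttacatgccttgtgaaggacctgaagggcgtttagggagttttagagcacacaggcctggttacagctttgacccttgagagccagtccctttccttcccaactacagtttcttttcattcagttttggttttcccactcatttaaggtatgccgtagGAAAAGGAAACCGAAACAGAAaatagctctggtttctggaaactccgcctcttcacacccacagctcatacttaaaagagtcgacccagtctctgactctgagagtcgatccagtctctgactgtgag
Ifi205 promoter, chr1:174031706-174032005, minus strand: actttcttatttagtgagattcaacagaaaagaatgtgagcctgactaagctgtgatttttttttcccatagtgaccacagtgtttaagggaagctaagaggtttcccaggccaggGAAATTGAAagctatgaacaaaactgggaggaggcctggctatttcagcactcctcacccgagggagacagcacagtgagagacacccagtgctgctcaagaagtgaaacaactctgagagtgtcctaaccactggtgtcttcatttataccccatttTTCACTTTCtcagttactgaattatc
Cxcl10 promoter, chr5:92348840-92349139, minus strand: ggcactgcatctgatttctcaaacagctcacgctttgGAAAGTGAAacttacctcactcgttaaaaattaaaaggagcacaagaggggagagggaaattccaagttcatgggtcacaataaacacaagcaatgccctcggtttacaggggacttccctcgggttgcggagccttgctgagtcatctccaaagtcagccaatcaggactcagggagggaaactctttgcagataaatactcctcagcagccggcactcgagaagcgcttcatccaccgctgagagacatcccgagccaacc
Slfn4 promoter, chr11:83174936-83175235, plus strand: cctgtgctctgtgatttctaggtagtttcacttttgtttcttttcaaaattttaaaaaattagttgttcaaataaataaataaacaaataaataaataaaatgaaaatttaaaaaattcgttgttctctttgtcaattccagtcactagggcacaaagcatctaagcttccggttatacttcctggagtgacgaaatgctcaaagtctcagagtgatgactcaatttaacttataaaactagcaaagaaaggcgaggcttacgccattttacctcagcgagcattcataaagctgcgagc
The windows of Rsad2 and Cxcl10 held 1 match each, that of Ifi205 2 and that of Isg15 3, where neighbouring matches overlap. Of the other promoters searched, those of Ifit1 and Ifit3 held 3 matches each. These letters are not in the window of Slfn4, Slfn1, Ms4a4c or Vcan, nor in the 2 windows each of Ifit2 and Ly6c2. All of these genes held higher too. Of all 32851 windows in the table, 8.56% held at least 1 match, so a match is a description and not a proven site. With 74.2% of the tested genes matched to a window, no share over a gene list is given.

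Rsad2, the antiviral enzyme viperin (chromosome 12, 26442746 to 26456452), had 967, 1718 and 1746 signal at day 3, against 20.3, 23.7 and 19.7 at day 0, 56.9, 33.1 and 56.2 at day 7 and 53.3, 50.6 and 49.8 at day 30. Isg15, a ubiquitin-like protein, had 161, 349.7 and 423 signal at day 3, against 6.07, 8.597 and 8.51 at day 0, 16.96, 18.3 and 17.4 at day 7 and 9.36, 10.3 and 8.62 at day 30. Ifi205, a DNA sensor family member, had 301, 513 and 491 signal at day 3, against 5.41, 5.98 and 6.34 at day 0, 14.99, 21.6 and 21.9 at day 7 and 24.02, 24.6 and 19.8 at day 30. In none of the 3 did a Ly6c-low library reach the lowest day 3 library, and the first library of day 3 was the lowest of day 3. The smallest differences were 4.77 ± 0.23 against day 30 with a largest adjusted p of 1.6e-09, 3.96 ± 0.27 against day 7 with a largest adjusted p of 4.2e-08 and 4.16 ± 0.21 against day 30 with a largest adjusted p of 1.6e-09. Mx1, an antiviral GTPase, had 374, 667 and 632 signal at day 3, against 14.8 to 34.2 with a median of 26.8, and held at 4.01 ± 0.23. The smallest differences of the other members that held ran from 1.03 ± 0.16 in Ddx60, a helicase, to 3.96 ± 0.25 in Ifit2, an RNA-binding protein that limits translation. Stat2, which carries the interferon signal, held at 2.66 ± 0.17, and Irf7, which drives interferon genes, at 2.91 ± 0.26.

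Most genes of coagulation and fibrinolysis were higher at day 3. In a wound, monocytes can start clotting and bind fibrin. Of 16 tested, 12 were higher than the mean and 3 lower, and 10 held higher and 1 lower, with a median difference from the mean of 1.19; the counts were 11 and 3 without the 2 libraries that stand apart, 3 lower without the second library of day 7 alone, and 7 and 2 after quantile normalisation. Thbs1, the matrix glycoprotein thrombospondin 1 (chromosome 2, 118111876 to 118127133), had 1878, 3195 and 2745 signal at day 3, against 10.4, 13.9 and 14.5 at day 0, 56.6, 112 and 51.4 at day 7 and 42.04, 40.8 and 41.4 at day 30. The highest Ly6c-low library was the second of day 7, far below each library of day 3, and the smallest difference was 5.19 ± 0.25 against day 7 with a largest adjusted p of 1.7e-09. F10 and F5, which encode coagulation factors X and V, had 40.9, 91.97 and 95.8 and 16.4, 53.8 and 38.4 signal at day 3, against 0.792 to 6.36 and 0.396 to 5.11 over the Ly6c-low libraries. They held at 3.74 ± 0.39 and 3.17 ± 0.48, and F7, factor VII, at 2.23 ± 0.41. Tgm2, the crosslinking enzyme transglutaminase 2, had 329, 550.4 and 571 signal at day 3, against 4.75, 16.2 and 20.6 at day 0, 82.5, 159 and 59.2 at day 7 and 22.1, 19.8 and 20.7 at day 30, and held at 2.34 ± 0.41 against day 7 with a largest adjusted p of 0.00032. Plaur, the receptor of the plasminogen activator urokinase, held at 2.29 ± 0.28. Pros1, the anticoagulant protein S, held lower (-0.98 ± 0.21), and F13a1, the A chain of factor XIII, was lower than the mean (-1.54 ± 0.18) without holding.

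Of 26 matrix and protease genes, 17 were higher than the mean and 6 lower, and 10 held higher and 2 lower, with a median difference from the mean of 1.52. The collagenase Mmp8 had 66.7, 60.6 and 64.1 signal at day 3, against 0.132 to 7.98 over the Ly6c-low libraries, and Mmp19 had 77.98, 128 and 96.2, against 5.77 to 23.1. They held without overlap at 3.21 ± 0.42 and 2.49 ± 0.22, as did the protease inhibitor Timp1 (1.54 ± 0.41), the metalloprotease Adam8 (1.5005 ± 0.28) and Spp1, the matrix protein osteopontin (1.43 ± 0.34). Timp2, another inhibitor of metalloproteinases, and Mmp12, macrophage elastase, held lower (-2.38 ± 0.28 and -0.81 ± 0.25). The 2 lower calls were 1 without the second library of day 3 or the third of day 7, and 4 without the 2 libraries that stand apart.

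Among secreted signals, chemokines of monocytes and a few cytokines were higher. Of 30 cytokines and chemokine ligands, 19 were higher than the mean and 5 lower, and 10 held higher and 2 lower, with a median difference from the mean of 0.89. Held lower were 4 without the second library of day 7, 5 without that and the first of day 0, and 1 without the second or the third of day 3. Cxcl10, a chemokine induced by interferon that attracts T cells, had 605, 1353 and 1241 signal at day 3, against 41.97, 20.2 and 18.8 at day 0, 60.7, 54.1 and 79.02 at day 7 and 103, 119 and 108 at day 30. Il1rn, the natural antagonist of the interleukin 1 receptor, had 359, 462 and 550.3 signal at day 3, against 15.6, 15.8 and 28.3 at day 0, 34.8, 57.8 and 41.5 at day 7 and 43.5, 39.3 and 40.4 at day 30. Osm, the cytokine oncostatin M, had 162, 277 and 235 signal at day 3, against 19.01, 6.71 and 7.61 at day 0, 21.8, 10.4 and 17.1 at day 7 and 37.4, 38.7 and 39.05 at day 30. All 3 were without overlap between day 3 and the Ly6c-low groups, with day 30 the nearest group for Cxcl10 and Osm. Their smallest differences were 3.19 ± 0.30 against day 30 with a largest adjusted p of 8.4e-07, 3.34 ± 0.23 against day 7 with a largest adjusted p of 4.9e-08 and 2.48 ± 0.32 against day 30 with a largest adjusted p of 1.9e-05. Cxcl3, a ligand of the neutrophil receptor Cxcr2, had 28.6, 28.9 and 27.003 signal at day 3, against 0 to 3.803 (2.67 ± 0.35). Ccl2, Ccl7 and Ccl12, ligands of Ccr2, held at 2.07 ± 0.18, 1.24 ± 0.25 and 1.18 ± 0.22. Il1b, Il6 and Il10 were higher than the mean (1.897 ± 0.25, 1.63 ± 0.34 and 1.26 ± 0.25) but did not hold, and Tnf did not pass against the mean (-0.49 ± 0.20, adjusted p 0.053). Pf4 and Cxcl16, which are chemokines too, held lower (-1.26 ± 0.28 and -0.67 ± 0.21).

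Growth factors were split by member. Of 17 tested, 4 held higher and 5 lower, beside 10.8% and 10.4% of all tested genes, with a median difference from the mean of -0.40. The counts of 4 and 5 were the same without the 2 libraries that stand apart and with day 30 as 1 sample. Vegfa, the main growth factor of blood vessels and a hypoxia target, had 66.5, 121 and 77.8 signal at day 3, against 0.396, 3.56 and 1.27 at day 0, 1.97, 1.62 and 1.17 at day 7 and 6.94, 6.501 and 5.96 at day 30. Igf1, insulin-like growth factor 1, had 47.8, 8.97 and 12.2 signal at day 3, against 309, 324 and 294 at day 0, 436, 289 and 423 at day 7 and 453, 451 and 475 at day 30. The groups did not overlap for either gene, and for Igf1 the first library of day 3 lay well above the other 2 of day 3. The smallest differences were 3.54 ± 0.35 against day 30 with a largest adjusted p of 1.2e-06 for Vegfa and -4.06 ± 0.39 against day 0 with a largest adjusted p of 7.6e-07 for Igf1. Pdgfb, a subunit of platelet-derived growth factor, had 2.78, 3.31 and 2.25 signal at day 3, against 18.7 to 48.7, and held lower (-2.55 ± 0.25). Inhba, a subunit of activin, and Csf1 held higher (1.898 ± 0.31 and 1.96 ± 0.24), and Bmp2, Pdgfc and Vegfb held lower (-2.02 ± 0.26, -1.88 ± 0.28 and -1.74 ± 0.25).

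Receptors and signalling genes of the transforming growth factor beta and BMP pathways differed in both directions. Of 22 tested, 5 were higher than the mean and 9 lower, with a median difference from the mean of 0.02. Of the 22, 1 held higher and 4 lower, beside 10.8% and 10.4% of all tested genes. With day 30 as 1 sample 0 held higher and 2 lower. Tgfbr2, the receptor that binds the ligand first, had 99.3, 91.1 and 99.8 signal at day 3, against 243 to 323 with a median of 289, without overlap, and held lower at -1.52 ± 0.14 against day 7 with a largest adjusted p of 6.5e-07. Tgfbr1, its partner kinase, had 213, 126 and 149.97, against 275 to 563 (-0.88 ± 0.21). Tgfbr3 and Bmpr1a overlapped the Ly6c-low range, and neither held without the second library of day 3. The call of Tgfbr3 was also lost without the second or the third library of day 0 or the first of day 3. That of Bmpr1a was also lost without the third of day 3, the first or the second of day 7 or any 1 of day 30. Smad7, an inhibitor of the pathway, held higher at 0.64 ± 0.25, just inside the threshold with a largest adjusted p of 0.04997, while Mmp14 (0.05022) and Kbtbd3 (0.05027) lay just outside it. No member of the list held higher without the second library of day 0, the second or the third of day 3, the first of day 7 or any 1 of day 30, and 2 did without the third of day 0 or the second of day 7.

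**Figure D3:**
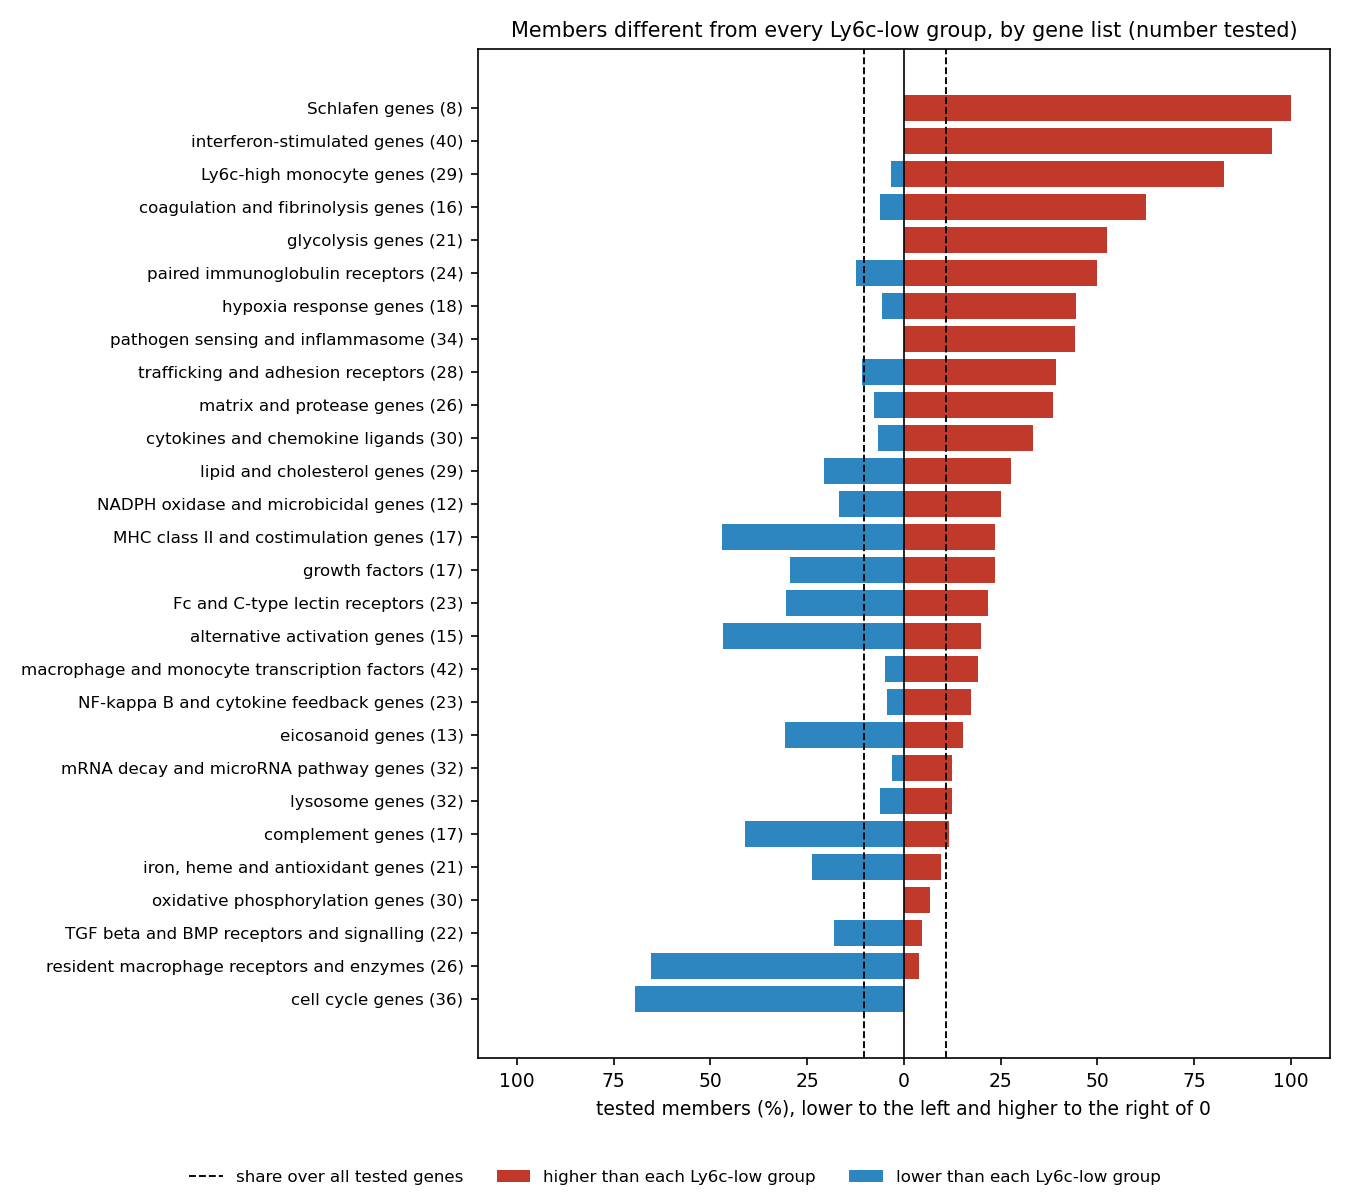
Share of tested members of each of the 28 lists of processes that were higher (red, to the right) or lower (blue, to the left) at day 3 than in each Ly6c-low group, with the number tested in parentheses. Dashed lines mark 10.8% and 10.4%, the shares over all tested genes; Schlafen genes stand at the top with 8 of 8 and cell cycle genes at the bottom with 25 of 36 lower.

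Glycolysis genes were higher at day 3. Glycolysis turns glucose to lactate and pyruvate, and macrophages that respond to microbial or injury signals are known to raise it. Of 21 glycolysis genes, 16 were higher than the mean and 3 lower, and 11 held higher and 0 lower, with a median difference from the mean of 1.12. The count of 11 was 14 without the 2 libraries that stand apart and 9 with day 30 as 1 sample, and 1 gene held lower without the third library of day 0. The median difference was 0.54 against day 7, compared with 1.24 against day 0 and 1.45 against day 30. Slc2a1, the glucose transporter GLUT1, had 81.2, 138 and 122 signal at day 3, against 16.1, 14.2 and 17.7 at day 0, 24.98, 36.4 and 22.9 at day 7 and 22.4, 24.6 and 21.9 at day 30. Hk3, a hexokinase of leukocytes, had 61.3, 78.04 and 107 signal at day 3, against 18.02 to 24.4 with a median of 19.8, and Hk2 had 60.9, 82.3 and 61.4, against 22.5 to 31.4 with a median of 25.5. Slc16a3, a lactate exporter, had 28.7, 50.1 and 50.4 signal at day 3, against 4.75, 6.19 and 8.15 at day 0, 11.8, 22.2 and 9.49 at day 7 and 7.25, 8.76 and 6.15 at day 30. All 4 were without overlap, with smallest differences of 1.97 ± 0.21, 1.86 ± 0.19, 1.296 ± 0.18 and 1.55 ± 0.30. Slc2a3, another glucose transporter, was lower than the mean (-0.67 ± 0.16) and did not hold.

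Hypoxia response genes were counted apart from glycolysis. Of 18 tested, 12 were higher than the mean and 3 lower, and 8 held higher and 1 lower, with a median difference from the mean of 0.80. The count of 8 was 4 without the second library of day 3, 5 without the third, 5 without the first of day 7 and 4 with day 30 as 1 sample. The lower call, that of Bnip3l, was lost without the second or the third library of day 3 or any 1 of day 30, or with day 30 as 1 sample; 2 held lower after quantile normalisation. Hif1a, the oxygen-regulated transcription factor, had 324, 435 and 421 signal at day 3, against 51.3, 52.9 and 55.2 at day 0, 69.9, 60.2 and 82.8 at day 7 and 80.1, 80.4 and 79.9 at day 30. Hilpda, a lipid droplet protein, had 34.5, 31.2 and 35.1 signal at day 3, against 5.02 to 7.87 with a median of 6.701, and Ero1l, an oxidase of the endoplasmic reticulum, had 88.2, 119.95 and 97.3, against 24.6 to 45.4 with a median of 34.4. These 3 genes were without overlap and held at 2.27 ± 0.15 against day 30 with a largest adjusted p of 2e-08, 2.11 ± 0.19 and 1.26 ± 0.17. Epas1, which encodes the related factor HIF2 alpha, was lower than the mean (-0.68 ± 0.26) without holding. Of 30 nuclear genes of oxidative phosphorylation, 9 were higher than the mean and 0 lower, with a median difference from the mean of 0.17. Of the 30, 2 held higher and 0 lower, beside 10.8% and 10.4% of all tested genes. The 2 that held were Cycs, cytochrome c, with 63.1, 82.9 and 82.6 signal at day 3 and 14.8 to 25.4 in the Ly6c-low libraries (1.66 ± 0.17), and Ndufa1 (0.54 ± 0.21, largest adjusted p 0.047). The call of Ndufa1 was lost without any 1 library of day 0, day 3 or day 30, or without the second of day 7. The count of 2 was 1 without the 2 libraries that stand apart, with day 30 as 1 sample and after quantile normalisation.

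Many innate immune sensors and their adaptors were higher at day 3. Of 34 genes of pathogen sensing and the inflammasome, 21 were higher than the mean, 1 was lower and 12 were neither, and 15 held higher and 0 lower, with a median difference from the mean of 0.70. The count of 15 was 18 without the 2 libraries that stand apart, 7 with day 30 as 1 sample and 9 after quantile normalisation. Nod2 and Nod1, sensors of bacterial cell wall, had 17.2, 24.2 and 20.9 and 50.97, 74.4 and 71.9 signal at day 3, against 2.72 to 7.596 and 14.3 to 32.6 in the Ly6c-low libraries. Myd88, the adaptor of most Toll-like receptors, had 53.3, 78.2 and 77.04 signal at day 3, against 17.7 to 32.6 with a median of 20.9. The 3 genes were without overlap (1.51 ± 0.27, 1.36 ± 0.20 and 1.2002 ± 0.18), and Il1r2, a decoy receptor of interleukin 1, held at 1.48 ± 0.38, a call lost with day 30 as 1 sample. Among Toll-like receptors Tlr1, Tlr3, Tlr9 and Tlr13 held higher (smallest differences from 0.55 ± 0.16 in Tlr1 to 1.07 ± 0.23 in Tlr9), and Tlr2, Tlr4, Tlr6, Tlr7 and Tlr8 did not pass against the mean. In 23 NF-kappa B and cytokine feedback genes, 4 held higher and 1 lower, beside 10.8% and 10.4% of all tested genes. None of the 5 held with day 30 as 1 sample. The 4 were Nfkbie, Bcl3, Dusp2 and Dusp5 (0.71 ± 0.22, 0.79 ± 0.26, 0.59 ± 0.19 and 1.36 ± 0.31), inhibitors and feedback phosphatases of these pathways. Held higher were 1 without the second or the third library of day 3, 2 without the second or the third of day 30, and 7 without the 2 libraries that stand apart. The lower call, that of Dusp6, was lost without the first or the third library of day 3 or the third of day 7.

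Cell surface immunoglobulin receptors and lectins moved in both directions. Of 24 paired immunoglobulin receptors, 12 held higher and 3 lower, with a median difference from the mean of 0.69. Of 23 Fc and C-type lectin receptors 5 held higher and 7 lower, beside 10.8% and 10.4% of all tested genes. After quantile normalisation 2 of the Fc and C-type lectin receptors held higher, and with day 30 as 1 sample 1 paired receptor held lower. Cd300lf, a lipid-binding inhibitory receptor, had 174, 193 and 261 signal at day 3, against 1.19, 1.68 and 1.81 at day 0, 25.6, 20.9 and 14.9 at day 7 and 4.45, 5.23 and 3.74 at day 30. Clec4e, the receptor Mincle of damaged cells and mycobacteria, had 202, 338 and 318 signal at day 3, against 2.64, 3.67 and 8.33 at day 0, 5.299, 9.25 and 8.33 at day 7 and 22.5, 23.6 and 22.3 at day 30. Day 7 was the Ly6c-low group nearest to day 3 for Cd300lf and day 30 for Clec4e, and neither reached it, with differences of 3.305 ± 0.22 against day 7 with a largest adjusted p of 3.9e-08 and 3.56 ± 0.30 against day 30 with a largest adjusted p of 2.7e-07. Trem1, an amplifier of inflammatory signals, and Treml2 had 23.1, 32.9 and 29.4 and 69.4, 87.01 and 88.7 signal at day 3, against 0.528 to 3.11 and 0.264 to 13.9, and held at 3.15 ± 0.32 and 2.83 ± 0.27. Trem2, a lipid receptor of macrophages, was lower than the mean (-0.68 ± 0.23) and did not hold. Siglece, an inhibitory receptor of sialic acid, had 9.77, 13.3 and 12.97 signal at day 3, against 65.1 to 142 with a median of 82.8, and Fcgrt, the Fc receptor that recycles immunoglobulin G, had 10.3, 9.33 and 7.68, against 69.5 to 173 with a median of 82.5. Both held lower without overlap (-2.65 ± 0.23 and -2.94 ± 0.15), and the Fc receptors Fcgr1 and Fcgr4 held higher (1.82 ± 0.17 and 0.64 ± 0.17).

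Receptors and enzymes of resident macrophages were lower at day 3. These genes, which include scavenger and hyaluronan receptors, mark macrophages that live in the heart before an injury. Of 26 members, 23 were lower than the mean and 2 higher, and 17 held lower and 1 higher, with a median difference from the mean of -2.96. The 17 were 18 without the 2 libraries that stand apart and 17 with day 30 as 1 sample. Of all named genes, Slco2b1, an organic anion transporter (chromosome 7, 99657804 to 99711340), stood furthest below every Ly6c-low group, with 6.71, 1.77 and 2.25 signal at day 3, against 382, 317 and 301 at day 0, 122, 142 and 129 at day 7 and 244, 252 and 239.9 at day 30. Cd81, a tetraspanin of the cell surface, had 17.4, 13.6 and 18.8 signal at day 3, against 962, 922 and 920.4 at day 0, 279, 453 and 377 at day 7 and 572, 584 and 571 at day 30. The Ly6c-low groups ran from day 7, the lowest, to day 0, the highest, in both genes, and none came near the day 3 libraries. Smallest differences were -5.002 ± 0.27 against day 7 with a largest adjusted p of 4.4e-09 and -4.38 ± 0.17 against day 7 with a largest adjusted p of 3.6e-10.

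Lyve1, a hyaluronan receptor, had 4.12, 1.06 and 1.06 signal at day 3, against 575, 458 and 462 at day 0, 31.2, 19.4 and 62.7 at day 7 and 238, 239.99 and 239 at day 30. Its day 7 libraries lay between those of day 3 and those of the other Ly6c-low groups, and it held at -3.64 ± 0.36 against day 7 with a largest adjusted p of 1.6e-06. Cd163, the scavenger receptor of haptoglobin and hemoglobin, had 6.04, 1.89 and 1.59 signal at day 3, against 510.01, 384 and 343 at day 0, 55.6, 23.4 and 52.1 at day 7 and 231, 219 and 227 at day 30, and held at -3.48 ± 0.34. Gpr34, a receptor of lysophosphatidylserine, had 5.17, 3.07 and 1.19 signal at day 3, against 79.2, 117 and 97.6 at day 0, 51.02, 59.6 and 115 at day 7 and 84.1, 82.7 and 95.8 at day 30. Here no difference among the Ly6c-low groups was called, and the smallest difference was -4.23 ± 0.33 against day 7 with a largest adjusted p of 1.5e-07. Fcrls, a receptor related to Fc receptors, had 52.3, 13.3 and 15.9 signal at day 3, against 387, 329 and 322 at day 0, 564, 901 and 692 at day 7 and 303, 299 and 315 at day 30, and Lilra5, an immunoglobulin-like receptor, had 2.01, 0.826 and 0.265, against 32.4 to 154 with a median of 103. Hpgd, which inactivates prostaglandins, had 10.8, 11.2 and 10.9 signal at day 3, against 84.7 to 508 with a median of 339. All lay below every Ly6c-low library, at -3.71 ± 0.34, -4.34 ± 0.24 and -3.62 ± 0.24. Siglec1, a sialic acid receptor that interferons are known to induce, was the member that held higher (0.87 ± 0.17). Mertk, the receptor for apoptotic cells, did not pass against the mean (-0.45 ± 0.18, adjusted p 0.051).

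Further genes among the largest falls belong to none of the receptor lists. Plxdc2, a membrane protein with a plexin domain, had 2.299, 3.07 and 1.32 signal at day 3, against 34.1 to 81.3 with a median of 65.1. Inpp4b, a phosphoinositide phosphatase, had 1.92, 1.06 and 1.32 signal at day 3, against 26.6 to 39.2 with a median of 35.9, and Col14a1, which encodes collagen XIV, had 6.51, 4.96 and 5.03, against 88.7 to 147 with a median of 113. All 3 were without overlap, at -3.99 ± 0.23, -3.68 ± 0.18 and -3.87 ± 0.18, and no difference among the Ly6c-low groups was called for Inpp4b or Col14a1. Among the largest rises outside the lists were Lipg, endothelial lipase, and Agpat9, an acyltransferase of triglyceride synthesis. Lipg had 53.2, 48.99 and 68.4 signal at day 3, against 0 to 1.27 in the Ly6c-low libraries, and Agpat9 had 17.8, 31.1 and 26.6, against 0 to 0.906. The Ly6c-low values of both are close to the level of 3 reads, so no fold is given; the largest adjusted p were 1.8e-09 and 1.5e-07.

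**Figure D4:**
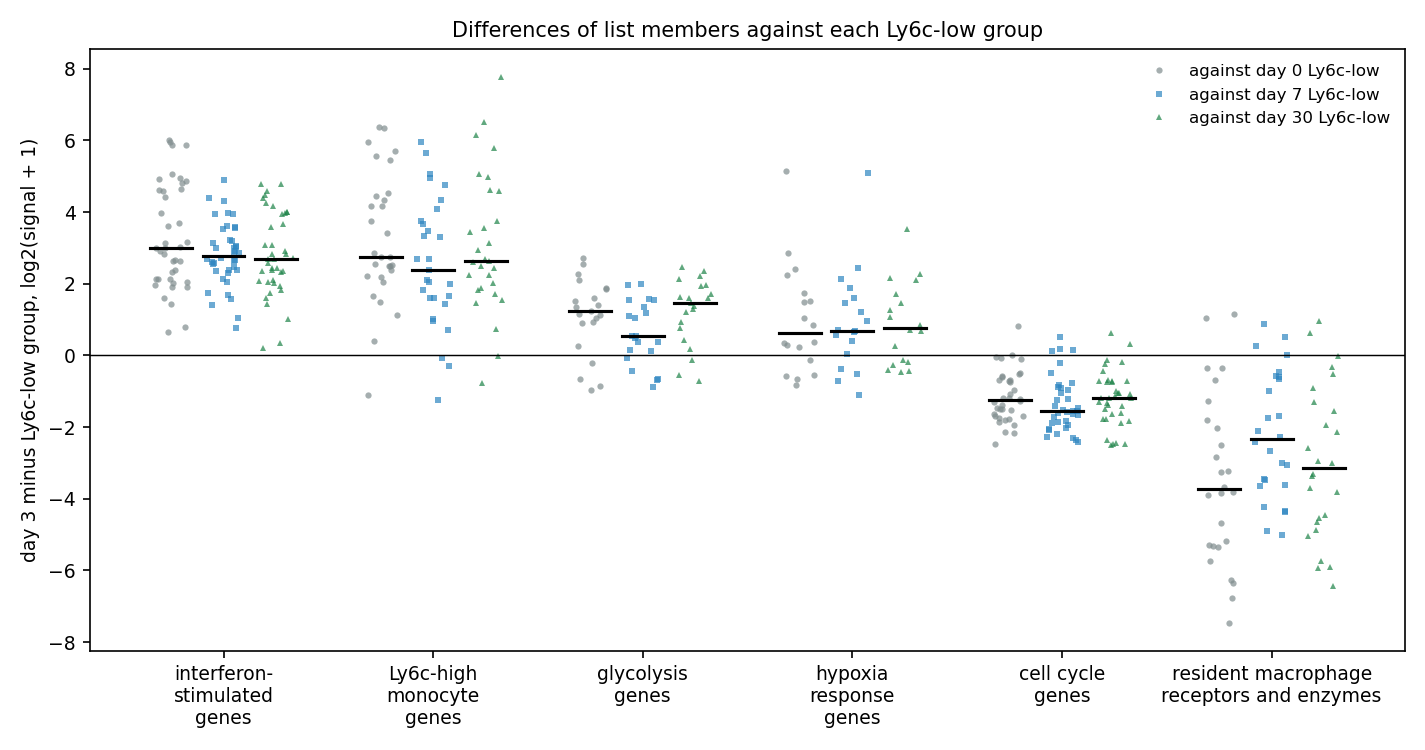
Difference of day 3 from day 0 (grey), day 7 (blue) and day 30 (green) on the log2(signal + 1) scale for each tested member of 6 lists; black bars are medians. Interferon-stimulated genes have medians of 3.001, 2.77 and 2.69 against day 0, day 7 and day 30, and resident macrophage genes have medians of -3.73, -2.35 and -3.15.

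Genes linked to alternative activation by interleukin 4 were found in both directions. Of 15 tested, 3 held higher and 7 lower, beside 10.8% and 10.4% of all tested genes, with a median difference from the mean of -1.29. Arg1, the enzyme arginase 1, had 211, 198 and 205 signal at day 3, against 1.06, 0.629 and 4.17 at day 0, 36.9, 41.6 and 37.4 at day 7 and 3.59, 3.53 and 4.88 at day 30. Mgl2, a galactose-binding lectin, had 4.98, 1.77 and 3.31 signal at day 3, against 378, 296 and 277 at day 0, 61.5, 38.1 and 63.98 at day 7 and 199, 186 and 185 at day 30. Day 7 was the nearest Ly6c-low group in both, on opposite sides of day 3, at 2.38 ± 0.31 against day 7 with a largest adjusted p of 2.1e-05 for Arg1 and -3.71 ± 0.25 against day 7 with a largest adjusted p of 3.7e-08 for Mgl2. Chi3l3, a chitinase-like protein, held higher (2.25 ± 0.66), and the mannose receptor Mrc1, the lectin Clec10a, the chemokines Ccl17 and Ccl22 and the secreted protein Retnla held lower (-1.74 ± 0.26, -0.67 ± 0.15, -1.71 ± 0.30, -1.29 ± 0.33 and -1.15 ± 0.31). Retnla and Chi3l3, both known as targets of interleukin 4, thus held in opposite directions.

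Among complement genes, chains of C1q were lower and factor B was higher. Of 17 tested, 2 held higher and 7 lower, beside 10.8% and 10.4% of all tested genes, so the higher count is near the share of all genes. C1qa and C1qc, chains of the recognition protein C1q, had 135, 65.3 and 86.3 and 328, 161 and 206 signal at day 3, against 402 to 1094 with a median of 678 for C1qa and 867 to 2392 with a median of 1274 for C1qc. Cfb, factor B of the alternative pathway, had 347, 383 and 471 signal at day 3, against 7.24 to 56.9 with a median of 22.4. None of the 3 overlapped, and their smallest differences were -2.19 ± 0.23 against day 30 with a largest adjusted p of 2.3e-06, -2.01 ± 0.23 against day 30 with a largest adjusted p of 6.1e-06 and 3.18 ± 0.21 against day 7 with a largest adjusted p of 3.7e-08. C3, the shared component, held higher at 1.504 ± 0.30, and the inhibitor Cd55 held lower at -1.68 ± 0.34.

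Most MHC class II genes, which present peptides to helper T cells, were lower. Of 17 genes of class II presentation and costimulation, 4 held higher and 8 lower, with a median difference from the mean of -0.97; 2 held higher without the third library of day 3 or after quantile normalisation. H2-Aa, an alpha chain, had 593, 956 and 696 signal at day 3, against 4722, 5302 and 5358 at day 0, 2469.5, 3649 and 4275 at day 7 and 4792, 5149 and 4840.2 at day 30, and H2-Eb1, a beta chain, had 130.00, 208 and 156, against 716 to 1436 with a median of 1296. Both were without overlap, with smallest differences of -2.202 ± 0.23 against day 7 with a largest adjusted p of 2.6e-06 and -2.63 ± 0.21 against day 7 with a largest adjusted p of 1.9e-07, and the invariant chain Cd74 held at -1.92 ± 0.26. Cd274, which encodes the T cell inhibitory ligand PD-L1, had 158, 178 and 206 signal at day 3, against 7.66, 5.87 and 13.8 at day 0, 14.5, 7.75 and 29.9 at day 7 and 28.2, 29.7 and 27.4 at day 30, and held higher (2.62 ± 0.35). Cd40 held higher (0.66 ± 0.23) and Cd83 lower (-1.13 ± 0.22).

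The 2 cyclooxygenases of eicosanoid synthesis differed in direction. Ptgs2, the inducible cyclooxygenase 2, had 199, 297 and 245 signal at day 3, against 24.8, 11.1 and 20.3 at day 0, 24.2, 15.6 and 23.1 at day 7 and 107, 107 and 108 at day 30. Ptgs1, the constitutive cyclooxygenase 1, had 6.32, 5.79 and 6.88 signal at day 3, against 100.4, 87.6 and 89.8 at day 0, 68.3, 64.04 and 54.6 at day 7 and 75.1, 79.4 and 70.6 at day 30. Alox5, the lipoxygenase that starts leukotriene synthesis, had 3.64, 1.77 and 2.52 signal at day 3, against 115, 110.4 and 94.4 at day 0, 26.6, 22.8 and 34.6 at day 7 and 67.1, 77.5 and 68.01 at day 30. The groups did not overlap in any of the 3, and their smallest differences were 1.18 ± 0.24 against day 30 with a largest adjusted p of 0.0013, -3.11 ± 0.14 against day 7 with a largest adjusted p of 1.5e-09 and -3.01 ± 0.20 against day 7 with a largest adjusted p of 3.7e-08. The call of Ptgs2 was lost with day 30 as 1 sample. Of 13 eicosanoid genes, 2 held higher and 4 lower, beside 10.8% and 10.4% of all tested genes. Without the second library of day 3 or with day 30 as 1 sample, 1 held higher.

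Lipid, iron and microbicidal genes each had members that held in either direction, beside 10.8% higher and 10.4% lower of all tested genes. For the iron, heme and antioxidant genes the higher count is near that share. Of 29 lipid and cholesterol genes 8 held higher and 6 lower, and 5 held higher without the third library of day 3 or after quantile normalisation, and 3 lower with day 30 as 1 sample. Msr1, a scavenger receptor of modified lipoproteins, had 709, 741 and 758 signal at day 3, against 144 to 217 with a median of 212, and Plin2, a coat protein of lipid droplets, had 634, 659.8 and 717, against 94.9 to 259 with a median of 121. Pltp, which moves phospholipid between lipoproteins, had 38.5, 30.3 and 22.6 signal at day 3, against 247 to 532 with a median of 325. The first 2 genes lay above and Pltp below all Ly6c-low libraries (1.77 ± 0.12, 1.47 ± 0.13 and -3.06 ± 0.20). Of 21 iron, heme and antioxidant genes 2 held higher and 5 lower, and 5 held higher without the second library of day 7, alone or with the first of day 0. Trf, transferrin, had 38.2, 53.8 and 39.6 signal at day 3, against 315 to 702 with a median of 342, and Slc40a1, the iron exporter ferroportin, had 9.101, 4.01 and 8.47, against 43.8 to 92.8 with a median of 57.95. Gsr, glutathione reductase, had 74.7, 132 and 112 signal at day 3, against 15.1 to 31.7 with a median of 18.5. These were without overlap (-2.89 ± 0.16, -2.63 ± 0.27 and 2.04 ± 0.24). Of 12 NADPH oxidase and microbicidal genes 3 held higher, Irg1, Slpi and Lcn2, and 2 lower, Lyz1 and Lyz2; 1 held lower without the first or the third library of day 3 or any 1 of day 30, or with day 30 as 1 sample. Irg1, which makes the antibacterial metabolite itaconate, had 35.4, 26.1 and 39.3 signal at day 3, against 0 to 2.57, and Slpi, a protease inhibitor, had 22.99, 51.7 and 51.6, against 0.528 to 5.11. The oxidase subunits Cybb, Cyba, Ncf1 and Rac2 did not pass against the mean.

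Cell cycle genes were lower at day 3. Of 36 tested, 30 were lower than the mean of the Ly6c-low groups and 1 was higher, and 25 held lower and 0 higher, with a median difference from the mean of -1.34. The 25 were 26 without the 2 libraries that stand apart and 17 with day 30 as 1 sample. Top2a, the topoisomerase of dividing cells, had 12.3, 11.3 and 11.6 signal at day 3, against 68.4, 67.7 and 74.8 at day 0, 72.2, 44.6 and 67.8 at day 7 and 68.2, 71.2 and 70.7 at day 30. Ccna2, cyclin A2, had 2.59, 3.42 and 3.57 signal at day 3, against 18.7, 17.6 and 16.5 at day 0, 24.98, 13.8 and 21.6 at day 7 and 20.7, 20.5 and 20.1 at day 30, and Kif11, a spindle motor, had 5.84, 4.25 and 2.91, against 24.2, 19.9 and 21.2 at day 0, 23.9, 12.1 and 19.9 at day 7 and 27.7, 25.9 and 28.7 at day 30. Day 3 was below every Ly6c-low library in all 3, and no difference among the Ly6c-low groups was called. Their smallest differences were -2.26 ± 0.17 against day 7 with a largest adjusted p of 9.8e-08, -2.16 ± 0.21 against day 0 with a largest adjusted p of 8.2e-07 and -1.87 ± 0.24 against day 7 with a largest adjusted p of 2.3e-05. Members of DNA replication held as well, among them Mcm2 (-1.18 ± 0.29), Mcm5 (-1.05 ± 0.28) and Rrm1 (-1.18 ± 0.20), whereas Pcna, Ccnd1 and Ccnd2 did not pass against the mean.

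Some transcription factors held, while genes of mRNA decay and of the lysosome held about as often as all tested genes or less often. Over all tested genes 10.8% held higher and 10.4% lower. Of 42 macrophage and monocyte transcription factors 8 held higher and 2 lower. Held lower were 4 without the second library of day 7, and held higher were 4 with day 30 as 1 sample. Cebpb, a factor of inflammatory myeloid genes, had 73.4, 89.3 and 77.4 signal at day 3, against 12.7 to 24.9 with a median of 16.2, and Runx3 had 63.9, 110.4 and 85.5, against 25.2 to 43.3 with a median of 31.4. Irf4, a factor of alternatively activated macrophages and dendritic cells, had 6.32, 9.44 and 5.43 signal at day 3, against 78.9, 87.6 and 70.99 at day 0, 24.4, 16.99 and 29.5 at day 7 and 58.9, 60.2 and 60.98 at day 30. The 3 genes were without overlap, at 1.702 ± 0.19 against day 30 with a largest adjusted p of 4.7e-06, 1.22 ± 0.21 against day 7 with a largest adjusted p of 0.00026 and -1.61 ± 0.21 against day 7 with a largest adjusted p of 2.3e-05. Stat3 and Bach1 held higher (0.81 ± 0.16 and 1.08 ± 0.15), and Spi1, Irf8 and Klf4 did not pass against the mean. Of 32 mRNA decay and microRNA pathway genes 4 held higher and 1 lower, with a median difference from the mean of 0.15. None held with day 30 as 1 sample, and 1 held higher and 2 lower after quantile normalisation. Of 32 lysosome genes 4 held higher and 2 lower, with a median difference from the mean of 0.09. Held higher were 1 without the third library of day 3 and 2 without the second of day 3 or the first of day 7, and held lower were 1 without the second or the third of day 3 or any 1 of day 30, and 4 without the second of day 7. With day 30 as 1 sample 1 held higher and 0 lower, and after quantile normalisation 1 held higher and 5 lower.

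Of the genes called against the mean, 1759 higher and 1783 lower ones did not hold. Genes that passed against 2 groups and missed the other were counted whether or not they passed against the mean. Missing day 7 were 622 on the higher and 613 on the lower side, missing day 30 were 554 and 546, and missing day 0 were 70 and 105. Called in the opposite direction against day 7 were 38 of the 622 and 5 of the 613.

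Among the genes that missed day 7, Gpnmb, a glycoprotein of phagocytes, had 667, 196 and 469 signal at day 3, against 3.56, 13.2 and 17.6 at day 0, 800.1, 1299.7 and 933 at day 7 and 46.9, 42.7 and 47.5 at day 30. It was above day 0 and day 30 without overlap and below day 7, also without overlap (-1.32 ± 0.45, adjusted p 0.024), and so was higher than the mean (2.33 ± 0.36). Fn1 had 988, 1735 and 1369 signal at day 3, against 29.4, 101 and 129.7 at day 0, 529.6, 1213 and 453 at day 7 and 149, 152 and 149 at day 30, where the second library of day 7 lay within the day 3 range (1.003 ± 0.44, adjusted p 0.071). Saa3, an acute phase protein, had 8.72, 12.6 and 13.9 signal at day 3, against 0, 0.944 and 0 at day 0, 6.06, 2.54 and 10.8 at day 7 and 1.33, 0.283 and 0.634 at day 30 (0.91 ± 0.40, adjusted p 0.076). On the lower side Ccl24, a chemokine of eosinophils, had 2.395, 2.72 and 1.85 signal at day 3, against 48.3, 47.9 and 44.6 at day 0, 3.63, 1.39 and 7.303 at day 7 and 26.8, 26.01 and 25.9 at day 30, and Tppp, a tubulin-binding protein, had 0.671, 0.354 and 1.06, against 28.6, 35.9 and 30.2 at day 0, 1.06, 1.04 and 4.53 at day 7 and 13.4, 14.4 and 15.8 at day 30. Both were far below day 0 and day 30 and overlapped day 7 (adjusted p 0.26 and 0.062).

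Among the genes that missed day 30, Nr4a1 and Nr4a2, nuclear receptors that are switched on within minutes of a stimulus, had 191, 337 and 264 and 42.4, 68.4 and 41.3 signal at day 3. In the Ly6c-low libraries Nr4a1 had 105, 25.1 and 19.6 at day 0, 39.5, 38.96 and 23.95 at day 7 and 206, 199.6 and 196 at day 30. Nr4a2 had 6.995, 1.78 and 3.62 at day 0, 2.42, 1.85 and 3.798 at day 7 and 25.8, 32.1 and 26.9 at day 30. For Nr4a1 day 30 lay within the day 3 range (0.36 ± 0.43, adjusted p 0.55), and for Nr4a2 just below it (0.79 ± 0.32, adjusted p 0.066). The summed signal of 12 early response genes was 4744 to 7174 at day 3, against 2747 to 10618 at day 0, 1909.7 to 2591 at day 7 and 8176 to 8377 at day 30, where the first library of day 0 was the highest of all. Egr1, an early response factor, had 57.5, 70.7 and 68.4 signal at day 3, against 710.2, 203 and 269 at day 0, 143, 136 and 179.7 at day 7 and 708, 713 and 666 at day 30, and held lower at -1.204 ± 0.31 against day 7 with a largest adjusted p of 0.0056. The part of this list in the result was not tested.

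Falls that missed day 30 included genes of heart muscle. Myh6, the myosin heavy chain of cardiomyocytes, had 0.671, 0.472 and 0 signal at day 3, against 8.84, 30.9 and 59.2 at day 0, 15.1, 29.6 and 12.9 at day 7 and 1.01, 1.13 and 1.39 at day 30. Ttn, the sarcomere protein titin, had 6.51, 4.01 and 4.103 signal at day 3, against 20.7, 121 and 227 at day 0, 28.3, 122 and 62.2 at day 7 and 9.36, 11.3 and 9.76 at day 30, and day 30 was below the other Ly6c-low groups in both. The 15 cardiomyocyte markers in the table summed to 198 to 255 at day 3, against 221 to 526 at day 0, 191 to 321 at day 7 and 139.9 to 143 at day 30, and 2 of them were at 0 in all day 3 libraries. Most of the day 3 sum was Atp2a2, the calcium pump of the sarcoplasmic reticulum, with 179, 211 and 240.4 signal at day 3, against 94.5 to 132 in the Ly6c-low libraries. Of 13 tested, 10 were lower than the mean and 1 higher, and none held lower; 1 held lower without the first library of day 0, the second of day 7 or the third of day 3, and 5 without the first 2 of these together. The part of heart muscle RNA in the result was not tested.

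Few genes missed day 0. S100a8 and S100a9, calcium-binding proteins of neutrophils and monocytes, had 31.8, 6.38 and 13.9 and 35.9, 6.02 and 16.02 signal at day 3. In the Ly6c-low libraries S100a8 had 1.58, 7.02 and 17.6 at day 0, 0.908, 1.85 and 7.303 at day 7 and 1.87, 1.27 and 1.84 at day 30. S100a9 had 0.264, 7.13 and 17.9 at day 0, 2.57, 1.62 and 2.19 at day 7 and 2.18, 1.13 and 1.71 at day 30. In both genes 2 libraries of day 0 lay within the day 3 range (adjusted p 0.2 and 0.11), and their difference from the mean was lost without the first library of day 3 (adjusted p 0.0791 for S100a8 and 0.0669 for S100a9). Hvcn1, a proton channel, had 6.61, 2.48 and 4.37 signal at day 3, against 6.599, 5.03 and 7.97 at day 0, 43.9, 68.2 and 52.4 at day 7 and 15.9, 17.2 and 15.2 at day 30, a fall against day 7 and day 30 alone. Sfrp2, a secreted modulator of Wnt signals, had 2.204, 2.83 and 2.65 signal at day 3, against 0, 0.419 and 0.543 at day 0, 26.8, 54.4 and 17.5 at day 7 and 11.7, 9.05 and 11.5 at day 30; day 3 was above day 0 (1.45 ± 0.33) and below the later groups, and its call against the mean was lost with edgeR.

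**Figure D5:**
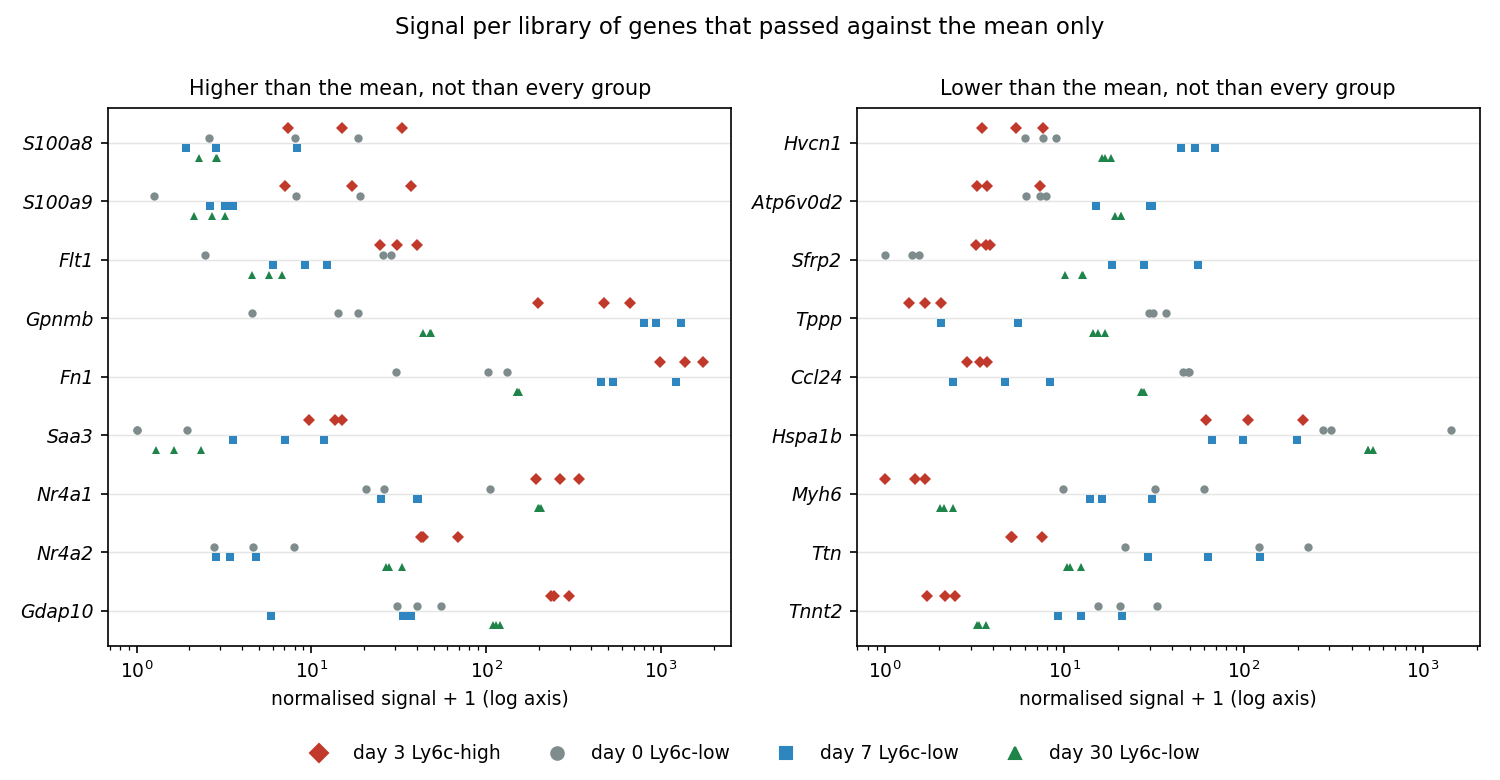
Signal + 1 on a log axis in each of the 12 libraries for 9 genes higher (left) and 9 lower (right) at day 3 than the mean of the Ly6c-low groups that did not hold, with markers as red diamonds for day 3, grey circles for day 0, blue squares for day 7 and green triangles for day 30. From top to bottom, each panel has 3 genes that missed day 0, 3 that missed day 7 and 3 that missed day 30.

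The genes that held were compared among the Ly6c-low groups, with contrasts that do not use the day 3 libraries. No difference among day 0, day 7 and day 30 was called in 800 of the genes that held higher (57.3%) and 853 of those that held lower (63.6%), beside 54.9% of all tested genes. Day 0 was the Ly6c-low group nearest to day 3 for 12.8% of the genes that held higher and 15.5% of those that held lower, beside 23.9% of all. Day 7 was nearest for 42.2% and 50.1%, beside 36.2% of all, and day 30 for 45.1% and 34.4%, beside 39.9% of all. Protein-coding were 1284 of the 1396 and 1286 of the 1342.

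Markers of other cell types were read beside these results. Over all tested genes 24.5% were higher than the mean and 24.3% lower, and 10.8% held higher and 10.4% lower. The summed signal of the 8 neutrophil markers in the table was 251 to 319 at day 3, against 66.5 to 124 at day 0, 106 to 165 at day 7 and 76.6 to 80.3 at day 30. Of 7 tested, 5 were higher than the mean and 1 lower, and Mmp8, Cxcr2 and Csf3r held higher, the last 2 at 1.28 ± 0.41 and 0.48 ± 0.16. Held higher were 1 without the third library of day 3 or with day 30 as 1 sample, and 5 without the third of day 0. The 15 fibroblast markers summed to 421 to 514 at day 3, against 90.8 to 229 at day 0, 697 to 2549.5 at day 7 and 245 to 257 at day 30, where the second library of day 7 was the highest. The 11 dendritic cell markers summed to 28.2 to 64.8 at day 3, against 50.9 to 76.8 at day 0, 76.4 to 120.1 at day 7 and 104 to 109 at day 30, and 4 held lower, Zbtb46, Cd209a, Batf3 and Siglech, but 2 without the first library of day 3 or with day 30 as 1 sample. T and NK cell markers held higher in 1 of 9, Il7r, and lower in 2, which were 4 without the first library of day 0, alone or with the second of day 7, and 1 without the second of day 3 or the first or the third of day 30, or with day 30 as 1 sample. B cell markers held lower in 2 of 5, Ighm and Cd79b. Of the 7 mast cell markers in the table, 5 were at 0 in all day 3 libraries, while Hdc, histidine decarboxylase, had 25.005, 20.3 and 25.4 signal at day 3, against 0.151 to 3.17. Of 10 markers of patrolling Ly6c-low monocytes, 2 were higher than the mean and 5 lower. Spn, Cd300e and Eno3 held lower (-1.596 ± 0.24, -1.21 ± 0.36 and -0.96 ± 0.22), and 1 of the 3 with day 30 as 1 sample. Itgal held higher (1.101 ± 0.33), though not after quantile normalisation, the call of Itgal being lost without the first library of day 0 or the second or the third of day 3. Against the mean, 2 of 11 endothelial markers were higher and 2 lower, no more often than over all tested genes. Also against the mean, 4 of 10 mural cell and 3 of 4 erythroid markers were lower, and the 1 platelet marker tested, Ppbp, was higher. Of the 15 mitochondrially encoded genes 12 were lower than the mean and 0 higher, and 7 held lower. Held lower were 12 without the 2 libraries that stand apart, and 4 without the third library of day 3 or with day 30 as 1 sample. Of 39 ribosomal protein genes 3 held lower, and 1 without the third library of day 0, the first or the third of day 3 or the second of day 30, 0 with day 30 as 1 sample and 8 after quantile normalisation. No gene of either class held higher. The part of these cell types and RNA classes in the results was not tested.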

How the data were processed

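RNA was sequenced from 12 libraries of GFP-positive mouse heart cells. Per the submitters' processing notes, cutadapt 1.3, RSEM 1.2.20, edgeR 3.14.0 and the build GRCm38 were used; strand was not given in the sources used here. The authors deposited 1 table of 14460 genes with 12 columns of linear normalised signal and 12 columns of log2 values; the deposited log2 values, which follow from the signal, were not used. Whole reads were recovered from the steps of the deposited signal in 100% of values within 0.02 reads. Floors of 3 reads cover counting error only.

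Symbols follow the table, with 15 symbols that had become dates restored by identifier; GENCODE M21 held 98.4% of the identifiers, and 63 genes had no symbol. The 12879 genes whose signal averaged 1 or more were fitted as log2(signal + 1) in limma 3.58.1 under R 4.3.3 with a variance trend, 4 group means and 8 residual degrees of freedom, and no replicate block. Two-sided p were adjusted by Benjamini and Hochberg over all tested genes within each contrast, at 0.05. The contrasts were day 3 minus the equally weighted mean of day 0, day 7 and day 30, day 3 minus each of these, and the Ly6c-low groups among themselves. The 3 single contrasts share the day 3 libraries, so passing all of them is a rule and no replication. With simulated data the test was checked on 12879 genes of which 200 had been changed. A p rests on 1 estimate of the spread between libraries within groups, which all 4 groups share and which may be technical. The day 30 libraries, which were unusually alike, thus enter the p of every contrast.

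The genes, 43 lists and tests were chosen with earlier results of these data known. Named were the 12 largest rises and falls by the smallest of the 3 differences among genes that held, without overlap, at a mean signal of at least 10 and with a gene name; for each list, the 4 largest of its members that held; the gate and lineage genes; and the largest genes that missed 1 group. A few members of lists and 1 of the largest rises are not reported here. Other list members are named for their count and were chosen after their values were seen. Alternatives were a pseudocount of 0.1 or 5, another filter (none, or a mean signal of 5), normalisation by quantiles or by centring on medians, array weights, a robust variance prior, replicate number as a block, edgeR 4.0.16 and DESeq2 1.42.0 on recovered reads, the largest of 3 p adjusted, a 2-fold limit, and leaving out libraries or groups. Promoter windows of RefSeq (GRCm38.p6) matched 9551 of the tested genes by symbol (74.2%). As the other tested genes have no window, the planned shares of motifs over lists are not given.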

Additional observations from a re-analysis of the deposited data

How the results depend on the processing

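Against the mean of the Ly6c-low groups, 3155 genes were higher and 3125 lower, and with a limit of 2-fold these were 1138 and 1367; in the other alternatives the counts stayed within 1.5 times, and leaving out 1 library gave 2499 to 3557 higher and 2411 to 3493 lower. Against each Ly6c-low group, 1396 genes held higher and 1342 lower. With a limit of 2-fold 659 and 724 held, with day 30 averaged as 1 sample 752 and 714, and without the day 7 group 2509 and 2397, where 1 contrast fewer has to be passed. Leaving out 1 library gave 1084 to 1719 higher and 1052 to 1614 lower. The edgeR quasi-likelihood test gave 1371 and 1380, DESeq2 1436 and 1451, quantile normalisation 1083 and 1201, and the largest of the 3 p adjusted 1173 and 1098. Replicate numbers did not pair the libraries: for 18 pairs of libraries that share a number, the correlation of deviations over genes had a median of 0.0049 (-0.0831 to 0.210), and for 36 pairs that do not it was -0.0069; with a replicate block 1409 held higher and 1335 lower. Of 167 named genes, 162 kept their call against the mean in every alternative that was scored gene by gene. Of 148 that held, 114 held in every such alternative, and no call of either kind reversed. The 2-fold limit and the largest of the 3 p adjusted were counted over all genes only and are not among these alternatives. A gene that a filter removed was not scored in that alternative. Normalisation moved the median of all genes by less than 0.1. Depth limits genes near 3 reads a library.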

Other observations

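Some of the largest differences stood outside the lists, and the genes of this paragraph were chosen after their values were seen. Gm14446 and I830012O16Rik, 2 protein-coding genes on chromosome 19, had 328, 618 and 774 and 152, 219 and 265 signal at day 3, against 1.99 to 14.5 and 2.35 to 27.6 in the Ly6c-low libraries, and held at 5.39 ± 0.27 and 3.95 ± 0.40. Mnda and Pyhin1, members of the interferon-inducible HIN-200 family on chromosome 1, had 546, 826 and 854 and 564, 868 and 831 signal at day 3, against 35.4 to 91.3 and 55.8 to 109, and held at 3.28 ± 0.26 and 2.78 ± 0.21. Ly6a, which encodes the surface antigen Sca-1, had 676, 673 and 840.3 signal at day 3, against 4.88 to 106 with a median of 47.2 (3.25 ± 0.46). Mxd1, a partner of MAX that opposes MYC, had 305, 519 and 539 signal at day 3, against 15.2 to 40.1 with a median of 29.1 (3.54 ± 0.20), and Met, the receptor of hepatocyte growth factor, had 35.8, 70.1 and 62.2, against 0.528 to 4.24 (3.73 ± 0.31). None of these genes overlapped between day 3 and the Ly6c-low libraries.

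Among the falls, the neighbouring genes Tmem176a and Tmem176b, which encode channel-like membrane proteins, had 11.4, 23.7 and 21.05 and 33.1, 56.9 and 36.8 signal at day 3, against 134 to 233 with a median of 185 and 233 to 408 with a median of 345 in the Ly6c-low libraries, and held at -3.07 ± 0.22 and -2.83 ± 0.19. Ephx1, an epoxide hydrolase, had 0.575, 0.944 and 1.59 signal at day 3, against 20.9 to 84.7 with a median of 41.3 (-3.597 ± 0.19). Igfbp4, a binding protein of insulin-like growth factors, had 6.71, 5.43 and 5.69, against 69.2 to 154 with a median of 95.8 (-3.52 ± 0.17), beside the fall of Igf1 itself. Abca9, a lipid transporter, had 48.4, 47.6 and 35.7 signal at day 3, against 178 to 755 with a median of 587 (-2.52 ± 0.20).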
